A study of Mus musculus with 9 samples.

Results

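Among 15384 genes in the count table of MyC-CaP cells, 345 carry a symbol made of Zfp and a number, and 202 of these had a mean of at least 200 raw counts over 9 libraries. These 202 well-expressed Zfp genes are described here. They were chosen by their symbol and by this mean count over all times, so their level is a description and not a finding, and the CCCH-type mRNA decay factors Zfp36, Zfp36l1, Zfp36l2 and Zfp36l3 were left out by name. The genes nearest to the limit on its inner side were Zfp354a (204 counts), Zfp791 (206.6) and Zfp120 (210), and those nearest on its outer side were Zfp341 (199.6), Zfp946 (199.3) and Zfp738 (198.7).

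MyC-CaP is a prostate cancer cell line derived from a mouse with a prostate Myc transgene. The cells were held in medium without serum and calcium and then collected at time 0 or after 12 or 24 h with 100 ng/mL recombinant mouse ASPN (asporin, a secreted leucine-rich proteoglycan of the stroma), with 3 libraries at each time. All groups came from 1 cell line and were starved before treatment, and the labels call the time 0 libraries ASPN-treated as well. Whether serum was returned afterwards was not given in the sources used here, so the length of the starvation may also differ between the times. Libraries kept for 12 or 24 h without ASPN were not analysed here, so the ASPN exposure and the hours in culture cannot be told apart in any comparison below. The question put to the Zfp genes was how their mRNA levels stood at 12 and 24 h relative to time 0.

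Most Zfp symbols stand for C2H2 zinc finger proteins. In a C2H2 finger a short peptide folds around a zinc ion that is held by a pair of cysteines and a pair of histidines, and a row of such fingers reads a row of bases in DNA. A large group of these proteins also carries a KRAB domain near the amino terminus, which recruits the corepressor Trim28 and, through it, the histone methyltransferase Setdb1 and heterochromatin proteins. KRAB zinc finger proteins are best known for silencing transposable elements and for guarding imprinted loci, and their genes arose by repeated duplication, so that many lie side by side on a few chromosomes.

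Both features can be read in the coding sequence. A search of the GENCODE M21 coding sequences, which held 201 of the 202 genes (all but Zfp469), found the spacing of a canonical C2H2 finger in 192 genes, with up to 32 matches in 1 coding sequence, and a strict KRAB A box pattern in 71. The first finger of a pair of members that were lower at 24 h (Zfp87 and Zfp791) and a pair that were higher (Zfp51 and Zfp984) follows, each within a single coding exon of GRCm38, 5′ to 3′ on the coding strand, with the codons of the cysteines and histidines that hold the zinc in capitals.
Zfp87 (chr13:67517949-67518011, minus strand): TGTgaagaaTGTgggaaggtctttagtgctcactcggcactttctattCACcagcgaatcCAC
Zfp791 (chr8:85110862-85110924, minus strand): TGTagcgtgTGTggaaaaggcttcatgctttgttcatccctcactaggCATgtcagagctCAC
Zfp51 (chr17:21463770-21463832, plus strand): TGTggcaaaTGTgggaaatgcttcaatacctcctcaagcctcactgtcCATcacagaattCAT
Zfp984 (chr4:147755613-147755675, minus strand): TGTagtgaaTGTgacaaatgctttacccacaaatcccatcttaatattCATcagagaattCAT
Identity over these 63 bases ranged from 50.8% (Zfp87 and Zfp791) to 65.1% (Zfp51 and Zfp984).

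The KRAB stretch of the same genes was closer than the first finger in every pair of them. The 33 bases below end in the codons of the glutamate and the tryptophan that close the pattern, in capitals, and the match of Zfp51 was found only with the looser pattern.
Zfp87 (chr13:67521269-67521301, minus strand): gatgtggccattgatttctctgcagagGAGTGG
Zfp791 (chr8:85113583-85113615, minus strand): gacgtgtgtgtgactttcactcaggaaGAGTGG
Zfp51 (chr17:21461679-21461711, plus strand): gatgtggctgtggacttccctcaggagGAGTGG
Zfp984 (chr4:147757778-147757810, minus strand): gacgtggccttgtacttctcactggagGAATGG
Here identity ran from 60.6% (Zfp87 and Zfp791) to 75.8% (Zfp51 with each of the other 3). These 4 genes thus carried the same arrangement, whether they fell or rose, and members can be close enough in sequence for reads to be split between copies. Of the 202 genes, 22 shared at least 5% of their 100-base stretches with another annotated gene, among them Zfp524 (42.9%), Zfp984 (30.9%), Zfp747 (10.5%), Zfp87 (6.76%) and Zfp866 (5.87%), and their values are the less certain for it. Exons of another gene on the opposite strand overlapped 57 members, and whether reads were counted by strand was not given in the sources used here.

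The libraries held 41881191 to 52993821 counts. The 202 genes together took 0.597 to 0.617% of the counts at time 0, 0.598 to 0.606% at 12 h and 0.447 to 0.461% at 24 h, so the 24 h libraries lay below all others. A member held a median of 763.2 counts per library. Of the epithelial and line markers given here, Myc (81.1 CPM, counts scaled to a common library total with TMM factors) and Krt8 (25.5) were present at time 0, Krt18 stood at 0.234 CPM, and Epcam and Cdh1 were at or near 0. Myc was lower at 24 h, at 41.1 CPM, and its part in the Zfp values was not tested. Markers of fibroblasts, immune and endothelial cells stood below 1 CPM except Pdgfra (13.2 CPM at time 0). In bulk RNA, fewer cells that express a gene and less of its RNA per cell cannot be told apart.

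Per length of exon, the highest of the members were Zfp664, Zfp395 and Zfp106, an RNA-binding protein. Their levels were 34.8, 33.3 and 31.7 RPKM (CPM per kilobase of exon, mean over 9 libraries), against a median of 3.50 over the members and 0.511 for the lowest of them. These 3 were not called in any comparison, whereas Zfp469, the next in level at 28.98 RPKM, was called in each. Zfp664 had 313, 323 and 310.2 CPM at time 0, 271, 265 and 274 at 12 h and 253, 214 and 233 at 24 h, with each later group below the one before and log2 fold changes of -0.22 and -0.43 relative to time 0, under the fold limit. Zfp106 differed by -0.17 and Zfp395 by 0.30 on the log2 scale at 24 h, also under that limit.

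After 12 h almost none of the Zfp genes had moved. A gene was called where edgeR's quasi-likelihood test gave an adjusted p (Benjamini-Hochberg, over all tested genes) of 0.05 or less and the change was at least 1.5-fold. By this rule 2 members rose (Zfp469 and Zfp263) and 1 fell (Zfp750), which is 1.49% of the 202, beside 1.6% of the 11410 genes tested (1.5% higher). The median log2 fold change of the members was 0.0048 and that of all tested genes was -0.0049, and the members ranged from -0.65 to 0.90. By the adjusted p alone 7 members were higher and 4 lower, against 10.3% of all tested genes (6.85% higher and 3.47% lower), and 28 had an unadjusted p under 0.05, beside 2437 of the 11410 genes tested.

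Zfp750 (chr11:121510978-121519333 in GRCm38, as are all coordinates here), a transcription factor of epidermal differentiation, was the member that fell at both times. It measured 44.4, 39.2 and 42.9 CPM at time 0, 27.5, 27.7 and 25.2 at 12 h and 6.57, 5.49 and 5.51 at 24 h. The 3 groups did not overlap, and every step went down. The log2 fold change was -0.65 (SE 0.0547) at 12 h and -2.85 (SE 0.0826) at 24 h, a 7.2-fold lower level, with adjusted p = 2.68e-07 and 1.79e-11 by edgeR's quasi-likelihood test. At 12 h only 0.0964% of all tested genes, 11 in number, were called lower. Both comparisons used the same time 0 libraries. Zfp750 held no match of the canonical finger spacing.

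Zfp469 (chr8:122258620-122272650), whose human counterpart is mutated in brittle cornea syndrome, went up and then down. It had 81.7, 75.7 and 73.5 CPM at time 0, 144, 152 and 132 at 12 h and 47.7, 53.5 and 43.8 at 24 h. All 12 h libraries were above and all 24 h libraries below those of time 0. The log2 fold change was 0.90 (SE 0.0493) at 12 h and -0.67 (SE 0.0675) at 24 h, with adjusted p = 1.22e-09 and 1.12e-06 by edgeR's quasi-likelihood test. Zfp263 (chr16:3744093-3750790) also rose at 12 h, from 27.2, 28.9 and 29.4 CPM to 44.6, 50.02 and 44.5 (log2 fold change 0.71, SE 0.0521, adjusted p = 5.26e-08 by edgeR), and its 24 h libraries (33.6, 28.4 and 29.4 CPM) overlapped those of time 0. Of the other 8 members past the adjusted p but under the fold limit at 12 h, the lowest were Zfp791 (-0.44) and Zfp664 (-0.22), and the highest was Zfp54 (0.37).

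At 24 h the picture differed. Of the 202 genes 82 were called (40.6%), 67 of them lower and 15 higher than at time 0, beside 28.8% of the 11444 genes tested, 16.8% lower and 12% higher. Among tested genes of the same count minimum the shares were 15.3% lower and 11.6% higher. The median log2 fold change was -0.28 for the members and -0.016 for all tested genes, 133 members lay below 0, and the range was -2.85 to 1.28. By the adjusted p alone 117 members were lower and 44 higher, against 36.5% and 34.4% of all tested genes (70.9% together). The 24 h libraries lay wholly below those of time 0 for 120 members and wholly above them for 42, against 38.3% and 35.6% of all tested genes. More members were thus lower than higher by each of these counts.

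**Figure D1:**
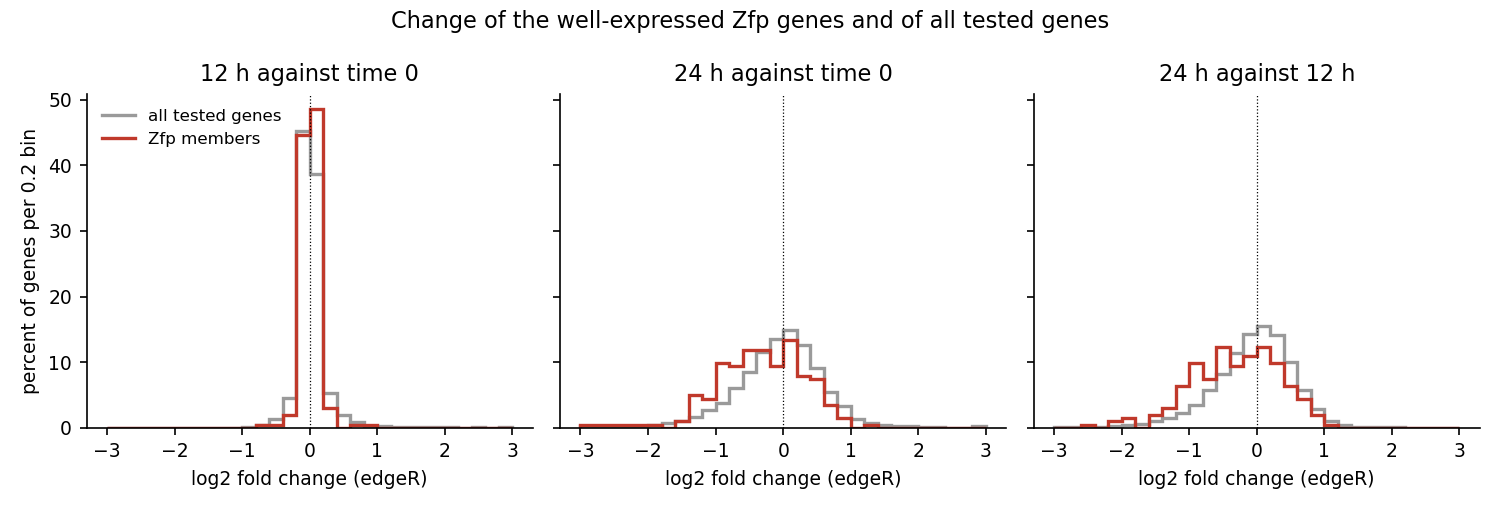
Distribution of the log2 fold change (x axis, edgeR) of the 202 Zfp members (red) and of all tested genes (grey) in the 3 comparisons, as percent of genes per bin of 0.2 (y axis), with values beyond 3 placed in the outermost bin. At 12 h both lie close to 0, and at 24 h the member curve lies left of the grey one, with medians of -0.28 and -0.016 relative to time 0.

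This split moved with the scaling. With total counts in place of TMM factors 4 members were called higher and 93 lower, beside 698 and 3008 of the 11444 genes tested, and the median of all tested genes itself moved to -0.24, so that the members lay 0.27 below it on the log2 scale under either scaling. Correcting for the length and the GC content of the transcripts left 54 lower and 10 higher, beside 1675 and 1280 of all tested genes, with a member median of -0.33.

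The 10 members with the lowest fold changes at 24 h were 2.58-fold to 7.2-fold lower than at time 0. After Zfp750 came Zfp791, Zfp87 and Zfp324, which all hold a KRAB pattern. Zfp791 (chr8:85108553-85123095) fell from 6.42, 6.37 and 7.68 CPM at time 0 to 1.27, 0.746 and 1.33 at 24 h (log2 fold change -2.61, SE 0.186), and its 12 h libraries lay between (5.23, 5.14 and 4.71). Zfp87 (chr13:67515781-67526177) stood at 8.85, 8.41 and 7.09 CPM at time 0, 7.35, 8.997 and 8.02 at 12 h and 1.34, 1.74 and 1.01 at 24 h (log2 fold change -2.56, SE 0.173). Zfp324 (chr7:12965838-12974236) went from 18.1, 14.7 and 15.6 CPM over 13.4, 13.3 and 14.1 to 3.54, 3.25 and 3.55 (log2 fold change -2.22, SE 0.107). In each of these the 24 h libraries lay far below all others, whereas the 12 h libraries of Zfp87 overlapped those of time 0. The adjusted p values at 24 h by edgeR's quasi-likelihood test were 3.61e-08 for Zfp791, 2.24e-08 for Zfp87 and 1.12e-09 for Zfp324.

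The next 6 in this order were Zfp866, Zfp84, Zfp319, Zfp626, Zfp747 and Zfp748. Zfp866 dropped from 15.6 ± 0.799 to 3.89 ± 0.944 CPM (SD, n = 3) and Zfp84 from 10.7 ± 0.409 to 2.99 ± 0.407, by log2 fold changes of -2.01 and -1.82. The others had log2 fold changes of -1.40 (Zfp319), -1.40 (Zfp626), -1.37 (Zfp747) and -1.37 (Zfp748). At 12 h none of these 6 was called, with log2 fold changes from -0.05 to 0.12, and no alternative setting ended the call of any of the 10 at 24 h. Apart from Zfp750 and Zfp319, all of the 10 matched at least the looser KRAB pattern, as did 85 of the 201 members with a coding sequence. That pattern was chosen after the data were seen. Over all members the share lower at 24 h was 36.5% with it and 30.2% without it.

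Zfp367 (chr13:64133018-64153202) showed the largest rise among the members. It had 12.4, 12.8 and 13.96 CPM at time 0, 15.8, 13.9 and 14.8 at 12 h and 33.1, 32.2 and 29.6 at 24 h, a 2.43-fold higher level at 24 h (log2 fold change 1.28, SE 0.0703, adjusted p = 3.26e-09 by edgeR's quasi-likelihood test). The 24 h libraries stood apart, and in the other 2 groups the highest library of time 0 and the lowest of 12 h were level. Zfp277 (chr12:40315046-40445902), which has been linked to Polycomb repression, rose from 29.8, 28.4 and 27.8 CPM to 54.3, 53.4 and 56.8 (log2 fold change 0.94, SE 0.0517), and the 12 h values of 29.5, 31.02 and 30.04 overlapped those of time 0. Zfp280d rose from 13.9, 15.7 and 14.1 CPM to 28.4, 26.3 and 28.1 (log2 fold change 0.93, SE 0.0688), and its relative Zfp280c on chromosome X rose by 0.77 from 29.2 ± 2.07 CPM (SD, n = 3). Zfp984 rose by 0.93, with the shared sequence given above. The remaining members of the 10 highest were Zfp143 (0.76), Zfp524 (0.74), Zfp68 (0.70), Zfp948 (0.66) and Zfp51 (0.62). Under total-count scaling Zfp143, Zfp280c, Zfp524, Zfp68, Zfp948 and Zfp51 stayed higher but fell under the fold limit, and Zfp948 without the first and Zfp51 without the second 24 h library did so too, at 0.56 and 0.54.

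**Figure D2:**
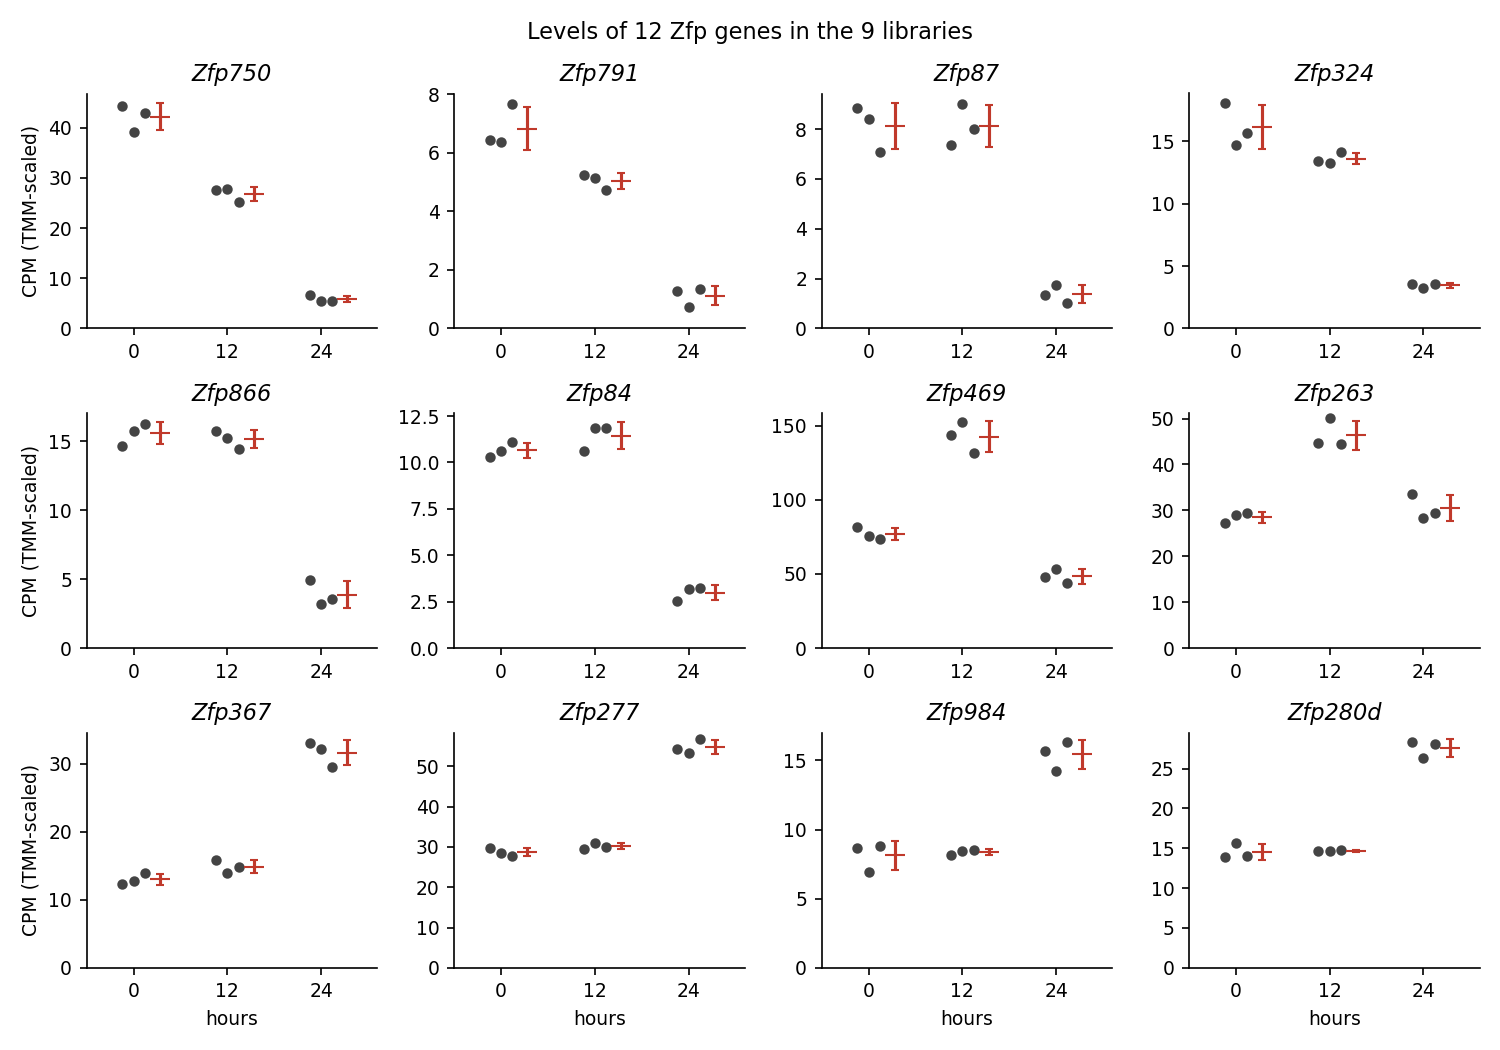
Levels of 12 Zfp genes in CPM scaled with TMM factors (y axis, from 0) against hours (x axis), with a point per library and the mean ± SD of 3 libraries in red. The first 6 genes fall at 24 h, Zfp469 and Zfp263 peak at 12 h, and the last 4 rise at 24 h.

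Between 12 and 24 h 82 members were called again, 66 lower and 16 higher, beside 25.7% of the 11394 genes tested (15.3% lower and 10.4% higher), and the median log2 fold change was -0.28 for the members and 0.0039 for all tested genes. By the adjusted p alone 116 were lower and 50 higher, against 35.6% and 35.7% of all tested genes (71.3% together). Of the 2 intervals the later one thus held nearly all of the calls. This comparison and that of 24 h with time 0 share the 24 h libraries, so their counts are not independent. The lowest were Zfp87 (-2.55), Zfp750 (-2.18) and Zfp791 (-2.16), and the highest Zfp367 (1.11), Zfp280d (0.93) and Zfp984 (0.90).

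Grouped by role, the Zfp proteins that act on RNA and ribosomes were set apart from the DNA-binding ones. Of 9 such members 0 rose and 1 fell at 24 h (11.1% lower, beside 16.8% of all tested genes), and their median log2 fold change was 0.04. Without the fold limit 3 were higher and 3 lower, beside 34.4% and 36.5% of all tested genes. The gene that fell was Zfp830, a protein linked to the spliceosome, with 18.6, 19.5 and 17.8 CPM at time 0, 19.01, 19.3 and 18.2 at 12 h and 8.21, 9.38 and 9.81 at 24 h (log2 fold change -1.02, SE 0.0858). The 24 h libraries lay below the others, which overlapped each other. Zfp622, a factor of large ribosomal subunit maturation, stood at 115 ± 5.73 CPM at time 0 and 164 ± 11.9 at 24 h (SD, n = 3), a log2 difference of 0.52 that missed the fold limit. Zfp598, the ubiquitin ligase that senses collided ribosomes, and Zfp207, a spindle protein that binds Bub3, differed by 0.36 and 0.35 at 24 h. The dsRNA-binding Zfp346 (-0.04), Zfp326 (0.04), Zfp385a (0.15) and Zfp638 (-0.28) were not called.

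Of 18 members listed as regulators of transcription or chromatin or as ubiquitin and SUMO ligases, 1 rose and 7 fell at 24 h, with a median of -0.40. The share that fell was 38.9%, beside 33.2% of the 202 genes and 16.8% of all tested genes. Zfp217, an oncogene amplified in human breast cancer, had 37.4, 37.4 and 37.6 CPM at time 0, 40.3, 44.6 and 42.6 at 12 h and 16.6, 18.5 and 16.8 at 24 h. Its 12 h libraries were the highest and its 24 h libraries the lowest, with log2 fold changes of 0.19 (adjusted p = 0.0109 by edgeR, under the fold limit) and -1.11 (SE 0.0598). Zfp652, a transcriptional repressor, fell from 83.4, 78.4 and 79.3 to 43.1, 40.5 and 41.02 CPM (log2 fold change -0.95, SE 0.0475). The rest of the falling genes were Zfp827 (-0.82), the brown fat regulator Zfp516 (-0.82), the transcription factor Zfp281 (-0.67), Zfp687 (-0.66) and Zfp703 (-0.61), the latter also amplified in breast cancer. The calls of Zfp516, Zfp687, Zfp703 and Zfp827 were lost with the length and GC correction, that of Zfp687 also without the first 24 h library, and that of Zfp703 without replicate 1 of time 0, replicate 1 of 24 h or replicate 3 of 24 h, at -0.55, -0.52 and -0.57. Zfp518a passed the limit without replicate 1 of 24 h, at -0.61.

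Zfp143, an activator that binds many promoters, was the member of this list that rose. It measured 17.5, 18.2 and 16.01 CPM at time 0, 18.5, 19.6 and 18.6 at 12 h and 28.95, 29.1 and 29.1 at 24 h, and the 24 h libraries stood above all others (log2 fold change 0.76, SE 0.0638). Zfp410, an activator of the remodeler gene Chd4, stood 0.27 higher on the log2 scale, which missed the fold limit. Zfp148 (-0.24), Zfp592 (-0.35), Zfp609 (-0.44), Zfp451 (-0.34), Zfp518a (-0.53), Zfp711 (-0.21), Zfp335 (0.10), Zfp292 (0.06) and Zfp91 (0.17) were not called.

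A short list held members described as KRAB repressors. Of its 7 genes 1 rose (Zfp426) and 1 fell (Zfp961) at 24 h (28.6% called, beside 28.8% of all tested genes), and the median was -0.083. Zfp57, which keeps imprinted loci methylated, had 13.5, 20.1 and 17.6 CPM at time 0, 22.97, 20.9 and 22.02 at 12 h and 16, 14.1 and 13.8 at 24 h. Its 12 h libraries lay above all of time 0, by a log2 fold change of 0.37 (adjusted p = 0.0238 by edgeR) that missed the fold limit, and its 24 h libraries overlapped those of time 0. Zfp809, which silences retroviral DNA, stood at 13.2 ± 0.869 CPM at time 0 and 14.6 ± 0.732 at 24 h (SD, n = 3), a log2 difference of 0.15 that was not called. Zfp568 (-0.22), Zfp110 (-0.08) and Zfp932 (0.07) were not called either. Zfp426 (0.58) lay on the fold limit and lost its call under most alternatives, and Zfp961 (-0.63) lost it without the first 24 h library (-0.56).

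The partners of KRAB repression were counted in the same way. Of 27 genes of the Trim28 corepressor list 0 were called at 12 h by edgeR, with 6 at an unadjusted p under 0.05 and 3 past the adjusted p alone (Uhrf1 at 0.23, Rbbp7 at -0.17 and Chd3 at -0.12), counts near the background of 2437 of 11410 genes and of 10.3%. At 24 h 0 rose and 4 fell (14.8%, beside 16.8% of all tested genes), with a median of 0.043 against -0.016 over all. Without the fold limit 10 were higher and 10 lower, which is near the 34.4% and 36.5% of all tested genes. Trim28 itself had 399, 394 and 411 CPM at time 0, 388, 391.8 and 404 at 12 h and 463, 489.9 and 478 at 24 h, a log2 difference of 0.25 that missed the fold limit although the 24 h libraries lay above the others. The genes that fell were Atf7ip (-1.01), the partner of Setdb1, the remodelers Chd3 (-0.73) and Chd4 (-0.72), and Cbx5 (-0.67), the heterochromatin protein HP1 alpha. Setdb1 differed by -0.44 and was not called.

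The number of finger matches went with the share of members called lower at 24 h. Of 38 members with 1 to 4 matches 10.5% were lower and 5 were higher, of 54 with 5 to 9 matches 25.9% were lower, of 62 with 10 to 14 matches 40.3%, and of 38 with at least 15 matches 55.3%, beside 16.8% of all tested genes. In the last 3 groups 4, 2 and 3 members were higher, beside 12% of all tested genes. The median log2 fold change in this order was -0.057, -0.22, -0.47 and -0.68. At 12 h the 4 medians lay between -0.0025 and 0.019, so no such order was present. Another 9 members held no match, and 2 of these were lower and 1 higher. No test was run over these groups, whose genes share descent. The pattern counts canonical spacing only, so that Zfp143 has 1 match and Zfp750 none.

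**Figure D3:**
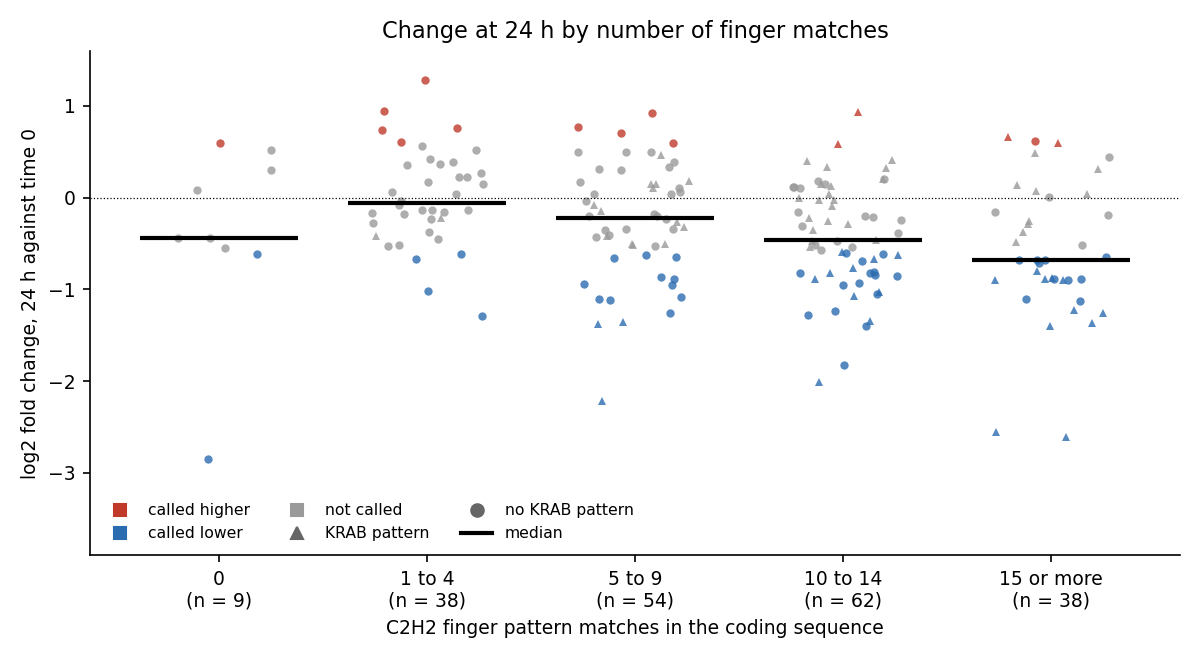
Log2 fold change at 24 h against time 0 (y axis, edgeR) of the 201 members with a coding sequence, by number of canonical C2H2 finger matches (x axis), with triangles for the strict KRAB pattern, colours for the call and black bars for the median. The medians of the last 4 groups go down from -0.057 to -0.68.

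The order of the shares was present with and without a KRAB pattern. Among the 71 members with the strict pattern the share lower at 24 h was 18.8% with 5 to 9 matches, 32.3% with 10 to 14 and 50% with at least 15, and among those without it 28.9%, 48.4% and 62.5%. With 1 to 4 matches these were 0 of 2 and 11.1% of 36. The medians of the members with the pattern did not follow the order, at -0.32, -0.29, -0.26 and -0.64. Over all finger numbers 24 of 71 members with the pattern were lower and 4 higher (median -0.32), against 42 of 130 lower and 11 higher (median -0.23) without it. With a looser pattern, chosen after the data were seen, 31 of 85 members were lower and 7 higher. Transcripts also differed between the groups, since members with at least 15 matches had a median longest transcript of 4594 bases and a GC content of 41.3%, and those with 1 to 4 matches 3765 bases and 47.8%. Among members without a KRAB pattern the median GC content did not go down, at 47.83%, 47.11%, 49.73% and 49.45% from 1 to 4 matches on. By call, it was 48.05% for members lower at 24 h, 45.06% for those not called and 40.69% for those higher. With the length and GC correction the shares lower over all members were 10.5%, 22.2%, 33.9% and 42.1%, but among the members without a KRAB pattern the last step was lost, with 21.1%, 35.5% and 31.2% from 5 to 9 matches on. Among those with the pattern the corrected shares were 25%, 32.3% and 50%, so which class had the larger share turned with the correction at 5 to 9 and at 15 or more matches. Mean counts went down as matches went up, with medians of 974.9 counts at 1 to 4 matches and 537.7 at 15 or more, and the part of length, GC content and level in the order was not tested beyond this.

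Tested genes outside the Zfp series were grouped alike. Of 10893 without a match 15.9% were lower, of 129 with 1 to 4 matches 24.8%, of 57 with 5 to 9 matches 45.6%, of 28 with 10 to 14 matches 21.4% and of 19 with at least 15 matches 21.1%, so the share went up to 5 to 9 matches and was lower beyond. At a mean count of at least 200 the last 3 shares were 44.4%, 17.6% and 30% (3 of 10 genes in the last). Zfp genes under the count minimum had shares lower of 50% (3 of 6 genes) with 1 to 4 matches and 52.4% with 5 to 9. With 10 to 14 matches the share was 56.8%, and with at least 15 it was 60.7%, so their shares differed less than those of the members. How either set differs from the members was not tested.

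Promoters of the members were searched for known motifs. The RefSeq promoter table (GRCm38.p6, 250 bases before to 50 after the most upstream start) matched 169 members and 12001 genes of the count table. The letters GGGCGG, the core of SP and KLF sites, searched on both strands, were in 58.7% of all promoters and in 49.7% of those of members. They were in 17 of 57 promoters of members lower at 24 h (29.8%), in 10 of 13 of those higher (76.9%) and in 57 of 99 of those not called (57.6%). Among the other tested genes the shares were 64.5% for those lower, 64.1% for those higher and 66.5% for those not called. The median GC content of the promoters was 54% for the lower members, 60% for the higher, 58% for those not called and 59.7% over the table, and its part in the motif shares was not tested. Below are the promoters of a pair of falling members, Zfp791 and Zfp324, and of the pair with the largest rise, Zfp277 and Zfp367, with GGGCGG or its complement in capitals.
Zfp791 (chr8:85123046-85123345, minus strand): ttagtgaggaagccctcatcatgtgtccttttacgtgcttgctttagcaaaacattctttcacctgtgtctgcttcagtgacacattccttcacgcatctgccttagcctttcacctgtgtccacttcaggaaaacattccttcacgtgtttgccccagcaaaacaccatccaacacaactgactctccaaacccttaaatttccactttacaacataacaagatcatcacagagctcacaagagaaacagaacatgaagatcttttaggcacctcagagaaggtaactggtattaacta
Zfp324 (chr7:12965588-12965887, plus strand): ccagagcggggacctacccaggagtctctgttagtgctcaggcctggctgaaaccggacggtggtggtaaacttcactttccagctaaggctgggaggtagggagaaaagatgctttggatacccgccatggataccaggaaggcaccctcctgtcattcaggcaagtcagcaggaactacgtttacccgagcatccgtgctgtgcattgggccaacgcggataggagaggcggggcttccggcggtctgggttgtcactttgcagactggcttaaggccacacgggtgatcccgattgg
Zfp277 (chr12:40445741-40446040, minus strand): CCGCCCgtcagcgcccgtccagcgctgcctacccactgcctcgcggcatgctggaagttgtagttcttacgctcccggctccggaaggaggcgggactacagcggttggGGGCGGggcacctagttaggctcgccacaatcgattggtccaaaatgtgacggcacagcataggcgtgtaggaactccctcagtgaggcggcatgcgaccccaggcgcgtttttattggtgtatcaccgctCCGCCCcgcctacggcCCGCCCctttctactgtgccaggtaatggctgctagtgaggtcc
Zfp367 (chr13:64153150-64153449, minus strand): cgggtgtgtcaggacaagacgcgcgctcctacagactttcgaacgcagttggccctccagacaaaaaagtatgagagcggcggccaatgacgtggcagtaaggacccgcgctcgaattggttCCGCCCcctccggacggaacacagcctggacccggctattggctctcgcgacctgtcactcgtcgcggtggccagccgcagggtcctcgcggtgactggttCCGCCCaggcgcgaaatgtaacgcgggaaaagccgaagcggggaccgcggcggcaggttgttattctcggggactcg
The first 2 promoters hold no match, that of Zfp277 holds 4 and that of Zfp367 holds 2, and a match is a run of letters and not a bound site. The pairs do not stand for all members, since the promoter of the falling Zfp866 and that of the rising Zfp984 held 1 match each. Promoters of Zfp750, Zfp87 and Zfp469 were not analysed here.

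The other motifs are given as the share of member promoters and then of all promoters. ACTACAAT, part of the ZNF143 site, was in 6 of the 169 member promoters (3.55%) and in 0.967% of all, the ETS core CCGGAAG in 21.3% and 16%, the E-box CACGTG in 10.1% and 9.35%, the NRF1 motif GCATGCGC in 5.33% and 4.75%, the YY1 core AAGATGGC in 5.92% and 4.11%, the cAMP response element TGACGTCA in 3.55% and 3.01%, and TATAAA in 7.69% and 8.62%. A loose NF-kB pattern (GGG and CC around any 5 bases), which can overlap GGGCGG, was in 61.5% and 65.1%. Every motif was searched on both strands.

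The members lay on 20 chromosomes, with 48 on chromosome 7, 22 on chromosome 17 and 18 on chromosome 8. Over all chromosomes 16.8% of tested genes were called lower and 12% higher. On chromosome 7, 20 members were lower and 3 higher at 24 h (median log2 fold change -0.40), on chromosome 8 the counts were 9 and 0 (median -0.55), and on chromosome 17 they were 3 and 3 (13.6% each, near these shares, median 0.042). Neighbours were grouped into runs where gaps between members were at most 300 kb. The 10 runs of 4 or more held 58 members, of which 21 were lower and 5 higher (median -0.42). Of 43 members in runs of 2 or 3, 16 were lower and 2 higher (median -0.19), and of 101 single members 30 were lower and 8 higher (median -0.23), so the medians did not go with run size.

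**Figure D4:**
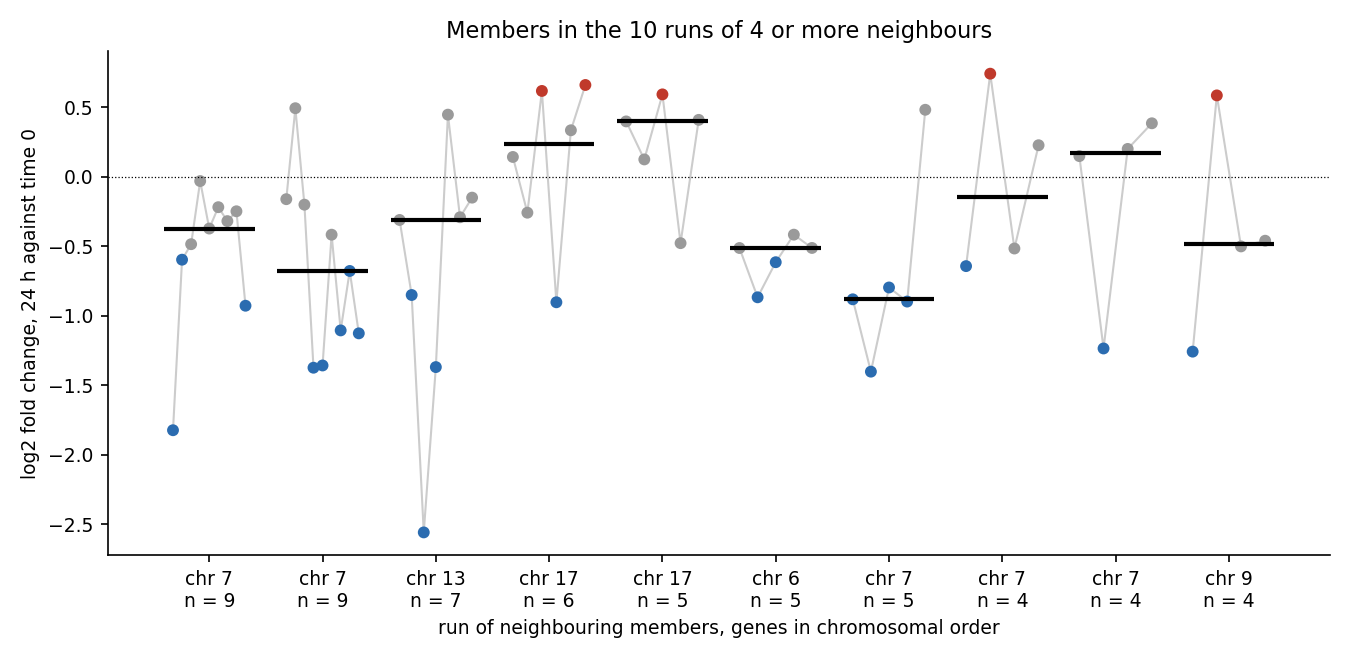
Log2 fold change at 24 h against time 0 (y axis, edgeR) of the 58 members in the 10 runs of neighbouring members, in chromosomal order within each run (x axis), with blue for called lower, red for called higher, grey for not called and black bars for the median. Within most runs the members differ widely, and the medians of 3 runs, 2 of them on chromosome 17, lie above 0.

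Within a run, neighbours could move apart. The run at chr13:67424549-67729173 held 7 members from -2.56 (Zfp87) to 0.45, with 3 lower. The run at chr7:27731389-28014115, around Zfp626, had 4 of 5 members lower and a median of -0.88, and that at chr7:127233061-127885996, with Zfp747, had 5 of 9 lower and a median of -0.68. The longest run by number beside it, chr7:29768552-30169750 with Zfp84 and Zfp568, had 3 of 9 lower and a median of -0.37. The medians of 3 runs lay above 0. That of chr7:24081924-24515682 was 0.17, with 1 of its 4 members lower and 0 higher. The run at chr17:21383748-21588699 held Zfp51 and Zfp948, both higher, with 1 of its 6 members lower and a median of 0.24, and that at chr17:21926960-22377281 had 1 of 5 higher, 0 lower and a median of 0.40. Genes of a run share descent and sequence, so they are not independent of each other.

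The count minimum is a mean that includes the 24 h libraries, so a fall at 24 h itself lowers the mean and the values on either side of the minimum are a description only. Of the 143 Zfp genes under the minimum 100 were tested at 24 h, and 56 of these were lower and 8 higher (56% and 8%, beside 16.8% and 12% of all tested genes), with a median of -0.84. Of the members split into 3 parts by mean count, the part with the lowest counts had a median of -0.29, the middle part -0.38 and the part with the highest counts -0.22. The genes just outside the minimum went each their own way, with Zfp341 at -0.20 (not called), Zfp946 at 0.79 (higher) and Zfp738 at -0.68 (lower). Just inside it Zfp791 was called lower (-2.61), and Zfp354a (0.04) and Zfp120 (0.15) were not called.

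**Figure D5:**
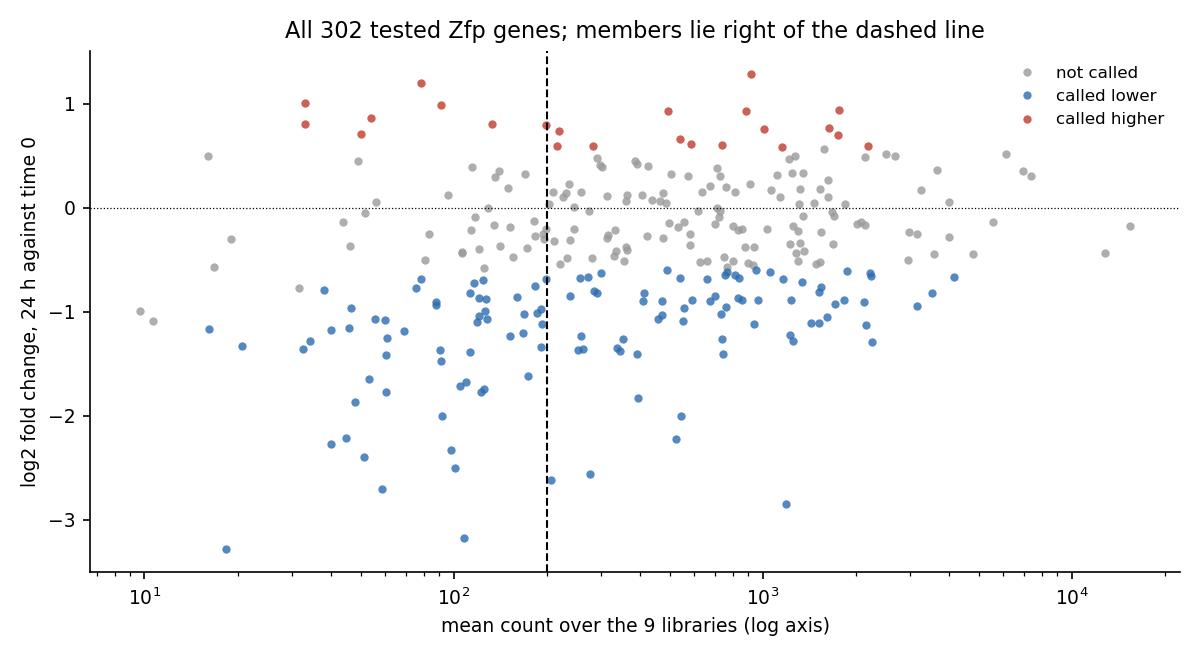
Log2 fold change at 24 h against time 0 (y axis, edgeR) of all 302 tested Zfp genes against the mean count over the 9 libraries (x axis, log scale), coloured by call, with the minimum of 200 counts as a dashed line. The genes left of the line reach lower values and have a median of -0.84, against -0.28 for the members right of it.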

How the data were processed

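RNA-Seq was analysed in 9 libraries of MyC-CaP cells, 3 at time 0, 3 after 12 h and 3 after 24 h with ASPN. The authors trimmed paired-end reads with Cutadapt, aligned them with STAR to GRCm38.p6, counted them over Gencode vM24 genes with featureCounts, and deposited raw counts per gene, which are not normalised. Protein-coding genes make up the table. The labels call the libraries biological replicates and the cells were plated in triplicate wells, so p-values measure the spread between such wells.

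Each pair of times was fitted on its own 6 libraries with edgeR 4.0.16 in R 4.3.3 (filterByExpr, TMM factors, quasi-likelihood test), with Benjamini-Hochberg adjustment over all tested genes. All 202 members passed the filter in every comparison. A call needed an adjusted p of at most 0.05 and a change of at least 1.5-fold, the limits the study used. The steps were tested on simulated counts in which 200 genes were changed, evenly up and down. For 24 h against time 0, 90% of the 2-fold and 100% of the 4-fold changes were recovered. In the data 70.9% of tested genes passed the adjusted p at 24 h, so this simulation cannot check the scaling there. The 12 h and 24 h comparisons share the time 0 libraries. CPM were scaled with TMM factors over the 9 libraries, and RPKM divides them by exon length in GENCODE M21 (GRCm38), which held 15374 of the 15384 gene identifiers. Fingers and KRAB boxes were found by pattern in translated M21 coding sequences. Totals of 41881191 to 52993821 counts per library limit precision mainly for members near the minimum. Alternatives were DESeq2 1.42.0, limma 3.58.1 voom, other scalings and filters, a length and GC correction, a replicate block, other count minimums and leaving out each library.

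The members, the role lists and the comparisons were chosen with earlier results of these data known. Named were the 10 highest and 10 lowest 24 h fold changes among called members whose libraries did not overlap with time 0, the 3 highest and 3 lowest of the members past the adjusted p at 12 h (fewer than 4 were called), the 3 highest and 3 lowest called between 12 and 24 h, the 3 highest per length, 3 genes on either side of the count minimum, the members of the role lists and the called genes of the Trim28 list. Other named genes were chosen after their values were seen. Some marker genes are not reported here.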

Additional observations from a re-analysis of the deposited data

Results flagged for a closer look

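Zfp469 was the member called in opposite directions at the 2 times under the adjusted p and the 1.5-fold limit together. Its level relative to time 0 was higher at 12 h (0.90 on the log2 scale) and lower at 24 h (-0.67), and the test of the difference itself, 24 h against 12 h, stood at -1.54 on the same scale (SE 0.068, adjusted p = 4.74e-10 by edgeR's quasi-likelihood test). All 3 libraries of 12 h lay above and all 3 of 24 h lay below the 3 of time 0. Zfp54 also turned by the adjusted p alone, at 0.37 at 12 h and -0.26 at 24 h, as did Zfp217, at 0.19 and -1.11.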

How the results depend on the processing

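The replicate numbers did not pair the libraries, since the correlation of deviations between same-numbered libraries lay between -0.158 and 0.087 over the 3 comparisons. With the replicate number as a block 3, 81 and 82 members were called (12 h against 0, 24 h against 0, 24 h against 12 h), with medians of 0.0047, -0.283 and -0.281, against 3, 82 and 82 without it. Of all tested genes 1.51%, 28.4% and 25.7% were called with the block.

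By the adjusted p alone 11, 161 and 166 members passed in these comparisons, beside 10.3%, 70.9% and 71.3% of all tested genes. The 12 h median moved to -0.0092 with upper-quartile factors and to -0.0154 with total counts, and leaving out 1 library gave -0.00266 to 0.00715, so its sign is not set. The 24 h median relative to time 0 was -0.251 with upper-quartile factors, -0.505 with total counts, -0.325 with the length and GC correction, -0.329 with that correction and the replicate block, -0.365 with a minimum of 100 counts and -0.253 with 500, and -0.307 to -0.255 without 1 library each. Relative to 12 h it was -0.507 with total counts, -0.352 with a minimum of 100 counts, and -0.303 to -0.259 without 1 library. Total counts called 5 members higher and 93 lower there, against 16 and 66, while the calls over all tested genes went from 1184 higher and 1740 lower to 484 and 2830. No called value of a named gene changed direction under any alternative tried. Without 1 library 77 to 80 members were called at 24 h against time 0, beside 28.1 to 28.7% of all tested genes. Leaving out the members with at least 5% shared sequence, an alternative added after seeing the data, gave 71 calls among 180 members at 24 h against time 0. That is 39.4%, against 40.6% of the 202 and beside 28.8% of all tested genes. Depth limits the members near 200 counts and the 43 Zfp genes left untested under the minimum.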

Other observations

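Other zinc finger families of the same table were counted at 24 h, where 16.8% of all tested genes were called lower and 12% higher. Of 37 tested Zbtb genes, which join C2H2 fingers to a BTB domain, 19 (51.4%) fell and 0 rose relative to time 0 (median -0.60 on the log2 scale). The 8 Zkscan genes had 2 lower and 1 higher (median -0.49), and the 8 Zscan genes 2 lower and 0 higher (median -0.38). At 12 h 0 genes of these 3 families were called by edgeR's quasi-likelihood test, with 9, 0 and 1 at an unadjusted p under 0.05. Of all 11410 tested genes 1.6% were called at that time and 2437 had an unadjusted p under 0.05, so these counts were near the background or below it. Whether these families differ from the Zfp genes was not tested.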
